A study of Gallus gallus with 2 samples.

Results

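The unplaced part of a chicken CTCF binding map is described here. It holds the peaks listed on sequence that the assembly does not put at a position on a chromosome, and it was taken by sequence name alone. A peak belongs to it when its sequence name contains "random" or begins with "chrE". This gave 707 of the 5830 peaks listed at 5 days and 1146 of the 21358 peaks listed at 10 days. The members fall into 3 classes. Un_random collects sequence that the assembly assigns to no chromosome. The chromosome-specific random sequences are tied to a chromosome but to no place on it. The linkage groups (E22C19W28_E50C23 and E64, each with a random sequence of its own) are genetic map groups not joined to a numbered chromosome. The study immunoprecipitated CTCF-bound chromatin from chicken blood with one antibody and sequenced it, with 1 library per age, labelled "5 day old" and "10 day old". Both are labelled red blood cells, although the growth and treatment fields describe cultured mononuclear cells stimulated with PMA and Io. Strain, the number of animals, and whether days count before or after hatching are not given by the labels, and a peak list holds no expression with which to check the cell type. Each peak is 399 bp wide and carries a whole-number score from the authors, of unstated meaning, which ran from 13 to 738 at 5 days and from 22 to 3381 at 10 days. Where peaks are called strong or strongest, this refers to the score alone and not to measured binding. Intervals are 95% intervals throughout and cover counting error alone. A single library stands for each age, so no test compares the ages, read depth is unknown, and peaks are not replicates.

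CTCF recognises DNA through an array of zinc fingers. It occupies insulators, where it blocks contact between an enhancer and a promoter, and at the anchors of chromatin loops, where it stops cohesin. Much of what is known of vertebrate insulators came from CTCF at the chicken beta-globin locus in red cells, which in birds keep their nucleus. Sequence that stays unplaced in an assembly is often repeated or close to a near-identical copy, and in tracks of this kind many separate contigs are usually strung into one artificial sequence. Neighbouring positions on Un_random may therefore not be neighbours in the bird.

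Un_random held most of the members. It carried 668 peaks at 5 days and 1043 at 10 days, against 16 and 48 on chromosome-specific random sequence and 23 and 55 on linkage groups. The 3 classes together made up 12.1% of the 5 day list (11.3 to 13.0) and 5.37% of the 10 day list (5.07 to 5.68). Taking both lists whole, the 10 day list outnumbered the 5 day list by less among members than among other peaks. Members were 1.62 times as many at 10 days as at 5 days (1.47 to 1.78), where assigned chromosomes had 3.95 times as many (3.83 to 4.07). These ratios depend on list length. Limiting the 10 day list to its 5809 highest scoring peaks gave 0.87 (0.78 to 0.97) for members and 1.01 (0.98 to 1.05) for assigned chromosomes. Un_random alone had a ratio of 1.56 (1.42 to 1.72). The smaller classes had ratios of 3.0 (1.67 to 5.66) for chromosome-specific random sequence and 2.39 (1.45 to 4.08) for linkage groups. The Un_random interval lay below that of assigned chromosomes, while those of the small classes reached into or past it. Shared peaks are by construction nearly equal in number in both lists. The gap between these ratios therefore has 2 parts, the shared share at 5 days and the growth in unmatched peaks. At 5 days 69.9% of members and 55.9% of peaks on assigned chromosomes were shared. Unmatched members were 3.03 times as many at 10 days (2.59 to 3.55), and unmatched peaks on assigned chromosomes 7.69 times as many (7.36 to 8.03). Both values are for the whole lists and were not taken at equal list length.

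**Figure D1:**
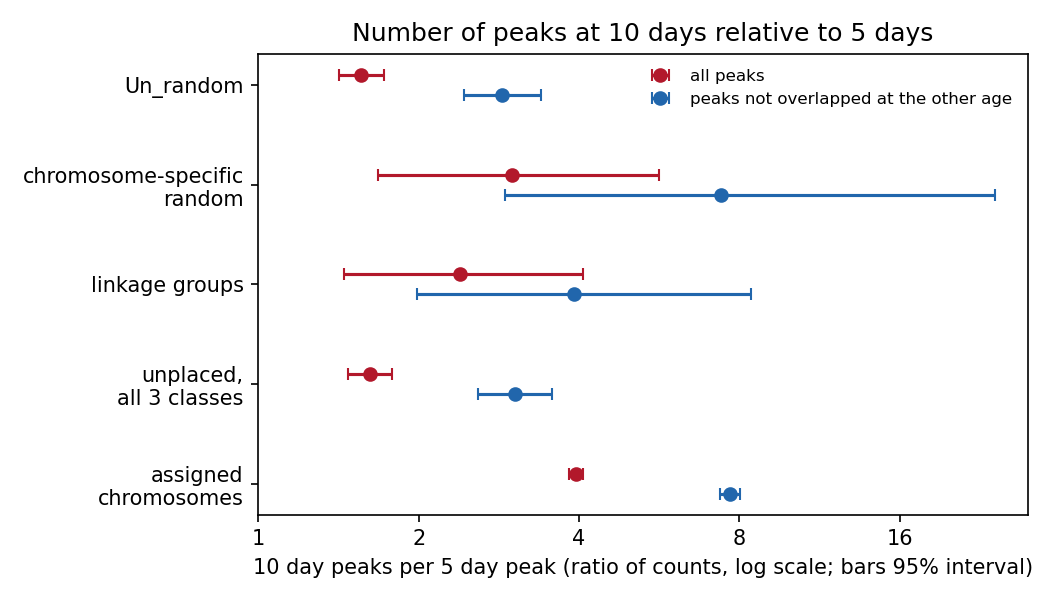
Ratio of the number of 10 day peaks to the number of 5 day peaks (log axis) for each class, for the 3 classes together and for assigned chromosomes, with exact 95% intervals as bars. Red points count all peaks and blue points those not overlapped at the other age, and the ratios on Un_random, 1.56 and 2.87, lie below those on assigned chromosomes, 3.95 and 7.69.

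Spread over the span up to the last listed peak, members stood at 10.6 per Mb at 5 days and 17.1 per Mb at 10 days. Assigned chromosomes had 4.97 and 19.6 per Mb. Members were therefore the denser set at 5 days and the sparser set in the whole 10 day list. The 10 day order depends on list length. Limited to 5809 peaks, the 10 day list held 615 members and 5194 assigned peaks on the same spans, against 707 and 5120 at 5 days. Un_random had 10.5 and 16.3 per Mb. Chromosome-specific random sequence had 9.96 and 29.9 per Mb, above assigned chromosomes at both ages. The linkage groups were the densest class by this measure at both ages, with 14.6 and 35.0 per Mb, on only 23 and 55 peaks. The spans of these small classes were only 1.61 Mb for chromosome-specific random sequence and 1.57 Mb for linkage groups. A span ends at the last peak and leaves out sequences without one. On short sequences this can raise the density, so the rank of the small classes against assigned chromosomes is not settled.

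The small classes were uneven from one sequence to the next. Of 18 member sequences, 10 held peaks at both ages, 7 at 10 days only and 1, the random sequence of chromosome 16, at 5 days only, with 1 peak of score 17. The 7 sequences seen at 10 days only belonged to chromosomes 2, 6, 7, 8, 22, W and Z. They held 20 peaks, with scores from 22 to 32. The W random sequence, from the female-specific chromosome of birds, had 4 of them, with scores of 22 to 26. No peak was listed there at 5 days, in a list whose lower limit of score is not known to match. Few 10 day peaks of low score were shared elsewhere either. On assigned chromosomes 2.63% were shared at a score of 22 and 8.91% at scores of 26 to 30. Over the whole 10 day list 15.8% were shared.

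The random sequence of chromosome 4 was the best filled of its class, with 7 peaks at 5 days and 14 at 10 days. A 10 day peak overlapped 6 of its 5 day peaks, where 57.6% of the whole 5 day list was overlapped. Its highest 10 day peak lay at 7953 to 8351 with a score of 113, and the 5 day peak 3 bp away scored 61. The peak at 91405 to 91803 scored 63 at 5 days and its counterpart 68 at 10 days. On the random sequence of chromosome 5 the only peak of each list overlapped the other, at 20824 to 21222 with a score of 66 at 5 days and at 20718 to 21116 with a score of 59 at 10 days. On that of chromosome 1 a peak at 16463 to 16861 scored 46 at 5 days, and its counterpart 2 bp away scored 102. On that of chromosome 28 a peak at 85581 to 85979 scored 52 at 5 days and its counterpart 69 at 10 days. Every 10 day member on these 4 sequences that scored above 50, other than 1 peak on chromosome 4 random sequence, had a 5 day partner. At scores of 61 and above this was not particular to them, as 98.8% of 855 such assigned 10 day peaks were shared. The shared members scoring 53 (chromosome 28) and 59 (chromosome 5) fall below that limit. At scores of 31 to 60, 40.0% of 3023 assigned peaks were shared.

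Linkage group E22C19W28_E50C23 carried 13 peaks scoring 15 to 56 at 5 days and 30 peaks scoring 22 to 75 at 10 days. At each age 8 of them were shared. The highest pair lay at 264343 to 264741 (score 56 at 5 days) and 264380 to 264778 (score 75 at 10 days). The random sequence of this group held 4 and 15 peaks, with the highest pair at 185847 to 186245 (score 66) and 185756 to 186154 (score 105). The 9 peaks on E64_random at 10 days and the 5 at 5 days had 2 in common, and E64 itself had 1 unmatched peak at each age. Over all linkage groups 52.2% of peaks were shared at 5 days (30.6 to 73.2) and 21.8% at 10 days (11.8 to 35.0). These intervals include the shares of the whole lists, 57.6% and 15.8%.

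Members stood higher in the score order of their list than peaks on assigned chromosomes. The median member was at the 55.7th percentile of the 5 day scores and at the 77.8th percentile of the 10 day scores, where assigned chromosomes stood at 49.1 and 51.0. The order of the class medians differed between the ages, with only 16 and 23 peaks in the small classes at 5 days. Median percentiles at 5 and 10 days were 53.6 and 80.3 on Un_random. They were 69.8 and 55.1 on chromosome-specific random sequence, and 64.4 and 65.5 on linkage groups. Mean percentiles, with the classes in the same order, were 54.5, 59.7 and 54.8 at 5 days. At 10 days they were 67.7, 56.5 and 58.8. By the mean, Un_random and linkage groups were thus close at 5 days. When the 10 day list was limited to its 5809 peaks scoring at least 29, close to the length of the 5 day list, the median member stood at the 72.6th percentile and the median assigned peak at the 46.8th. Members had a median score of 25 at 5 days (interquartile range 16 to 45.5) and 30 at 10 days (24 to 51). Peaks on assigned chromosomes had medians of 22 (15 to 37) and 25 (23 to 29). The sets lay closest together at the lower quartile and furthest apart at the upper one. At the lowest score of the 10 day list stood 10.8% of members and 19.8% of peaks on assigned chromosomes. The members summed to 17.1% of all score at 5 days and 13.3% at 10 days, from 12.1% and 5.37% of the peaks.

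Un_random made up a larger share of the top of both lists than of the whole lists. With ties kept, the 101 top scores at 5 days included 49 members and the 101 top scores at 10 days 65, all of them on Un_random. These are 48.5% (38.4 to 58.7) and 64.4% (54.2 to 73.6), or 4.0 and 12.0 times the members' share of the list. Against the members' share of the 10 day list limited to 5809 peaks, the second factor was 6.08. Among the 10 highest, 9 were members at 5 days and 10 at 10 days. The share was lower further down the lists, at 17.2% of the 1027 highest at 5 days and 22.8% of the 1008 highest at 10 days. The small classes entered late: no peak of theirs was among the 203 highest at 10 days or the 300 highest at 5 days.

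**Figure D2:**
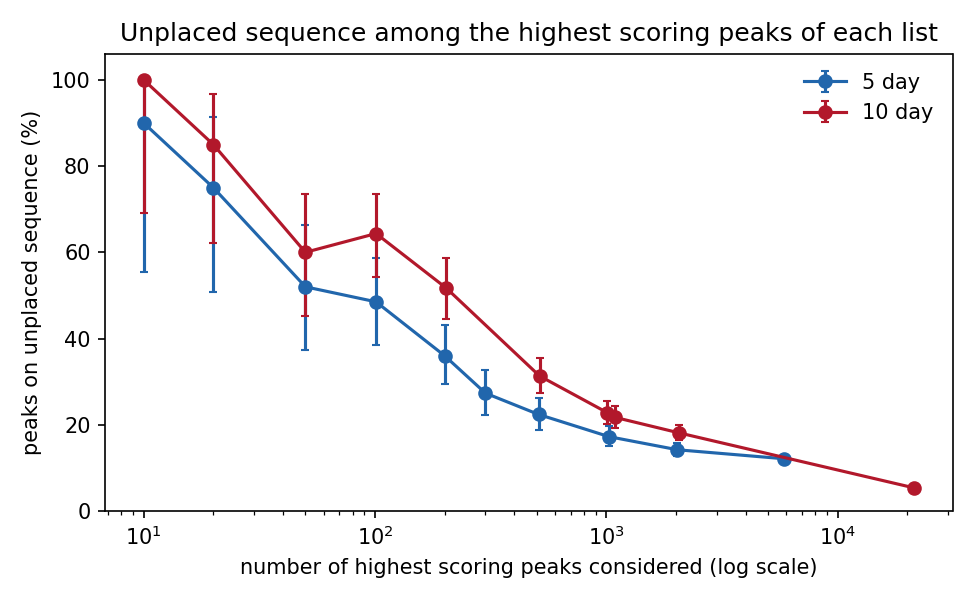
Percentage of peaks on unplaced sequence (vertical axis) among the highest scoring peaks of each list, for growing numbers of peaks (horizontal log axis), with exact 95% intervals. Blue is 5 days and red is 10 days, and the share falls from 90.0% and 100% of the 10 highest to 12.1% and 5.37% of the whole lists.

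The 4 highest scoring sites were the same at both ages and lay at nearly the same base. The site at Un_random 33878004 to 33878402 ranked 1 at 5 days (score 738), and its 10 day counterpart, 16 bp away, also ranked 1 (score 3381). The site at 16903115 to 16903513 ranked 2 (score 720) and 4 (score 2941), with starts 2 bp apart. The site at 885537 to 885935 ranked 3 at both ages (scores 674 and 3017), 3 bp apart. The site at 50618884 to 50619282 ranked 4 (score 613) and 2 (score 3312), 6 bp apart. The fifth 5 day peak, at 15291951 to 15292349 with a score of 538, ranked 8 at 10 days with a score of 1803 and lay 40 bp away. The fifth 10 day peak, at 24682985 to 24683383 with a score of 2275, had ranked 6 at 5 days with a score of 486.

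A larger share of members than of other peaks was listed at both ages. A 10 day peak overlapped 494 of the 707 members at 5 days by at least 1 bp, which is 69.9% (66.3 to 73.2), against 57.6% of the whole 5 day list and 55.9% (54.6 to 57.3) on assigned chromosomes. A 5 day peak overlapped 501 of the 1146 members at 10 days, which is 43.7% (40.8 to 46.6), against 15.8% of the whole 10 day list and 14.2% (13.7 to 14.7) on assigned chromosomes. The size of this contrast depends on list length: with the 10 day list limited to 5809 peaks, 67.2% of 10 day members and 42.8% of assigned peaks were shared, and 58.4% and 43.7% at 5 days. The classes differed at 10 days. Of Un_random peaks 45.8% were shared (42.8 to 48.9), of chromosome-specific random peaks 22.9% (12.0 to 37.3) and of linkage group peaks 21.8% (11.8 to 35.0). At 5 days the shares were 70.5% (66.9 to 73.9), 68.8% (41.3 to 89.0) and 52.2% (30.6 to 73.2), with overlapping intervals.

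Set side by side at like scores, members were shared more often than assigned peaks except at the top of the 10 day list, although at 5 days the intervals lay apart only at low scores. Each list was cut at its 20, 40, 60, 80 and 95% score points, with ties kept together. In the lowest band (scores 13 to 14) 44.2% of 113 members were shared (34.9 to 53.9) and 20.7% of 997 assigned peaks (18.2 to 23.3). In the highest band (71 and above) the shares were 98.8% of 82 (93.4 to 99.97) and 97.7% of 218 (94.7 to 99.3). At 10 days members were ahead in the first 5 bands, for instance with 25.7% of 210 (19.9 to 32.2) against 8.91% of 4849 (8.12 to 9.75) at scores of 26 to 30. In the highest 10 day band (61 and above) the order turned, with 93.2% of 237 members shared (89.3 to 96.1) and 98.8% of 855 assigned peaks (97.9 to 99.4). If assigned peaks had fallen into the bands in the members' proportions, 60.7% of them would have been shared at 5 days and 34.3% at 10 days, below the members' 69.9% and 43.7%. With peaks in runs (starts at most 1 kb apart) taken out of both lists, also as partners, 60.4% of members and 51.9% of assigned peaks were shared at 5 days, and 36.7% and 13.0% at 10 days. With the other list left whole, members outside runs were shared in 70.3% of cases at 5 days and members in runs in 68.5%, while at 10 days the shares were 39.8% and 57.6%.

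**Figure D3:**
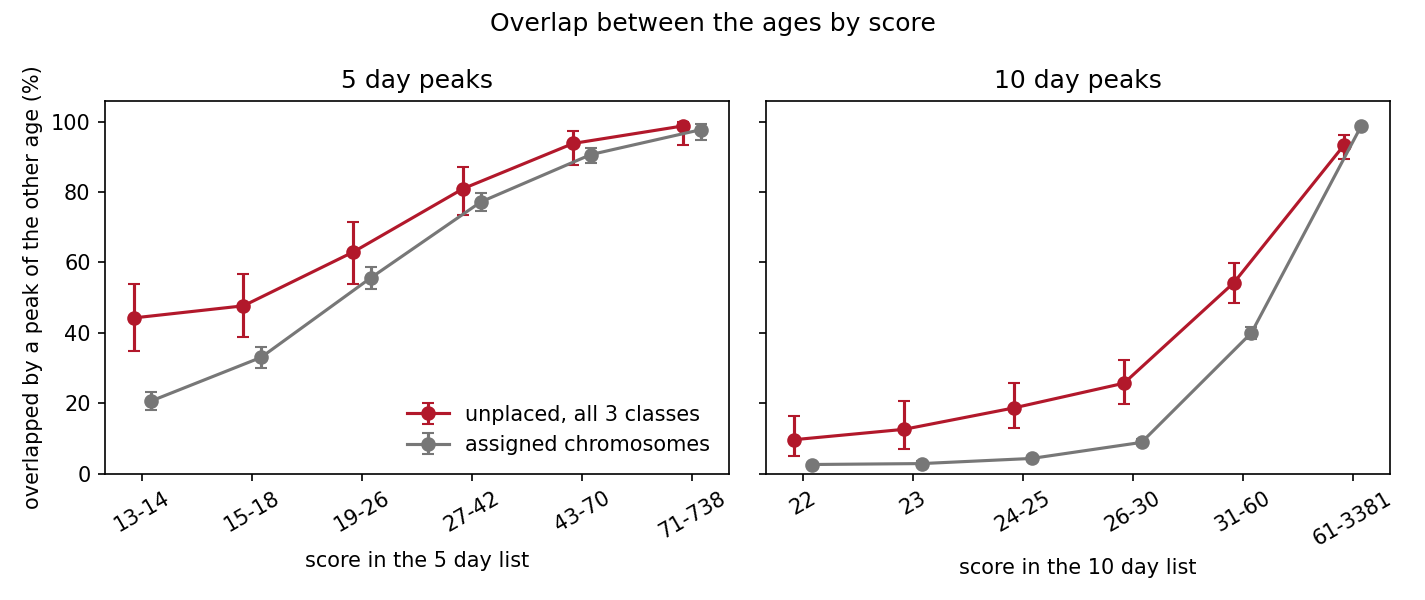
Percentage of peaks overlapped by at least 1 bp at the other age (vertical axis) in 6 bands of score (horizontal axis) for 5 day peaks (left) and 10 day peaks (right), with exact 95% intervals. Members (red) lie above assigned chromosomes (grey) at low scores, 44.2% against 20.7% in the lowest 5 day band, and below them in the highest 10 day band, 93.2% against 98.8%.

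Relative to 5 days, 10 day scores were higher on Un_random than elsewhere. Pairs were formed from overlapping peaks that were each other's nearest, which gave 486 member pairs (463 on Un_random, 11 on chromosome-specific random sequence and 12 on linkage groups) and 2832 pairs on assigned chromosomes. The scale of the 2 lists is not known to be common, so a ratio of scores is read here only against the ratio in other pairs of the same libraries. The 10 day score was a median of 1.87 times the 5 day score on Un_random (interquartile range 1.20 to 3.28) and 1.45 times on assigned chromosomes (1.05 to 1.96). The small classes had medians of 1.33 over 11 pairs and 1.21 over 12. A ratio above 3 was found in 135 pairs on Un_random, 29.2% of them, in 0 pairs of the small classes and in 5.79% of pairs on assigned chromosomes. The gap varied with the 5 day score and was widest at scores of 50 to 99. Among those pairs, 39.3% of 89 on Un_random and 7.76% of 606 on assigned chromosomes had a ratio above 2. At 5 day scores of at least 100 these shares were 54.7% of 53 and 34.5% of 55. They were 43.8% of 153 and 19.7% of 1213 at scores of 25 to 49, and 50.0% of 168 and 36.4% of 958 under 25. For 5 day scores under 25 the ratio cannot fall much below 1, because no 10 day score is under 22. Runs moved with this ratio in both sets. A peak in a run was found in 45.9% of member pairs with a ratio above 3, against 32.3% of all member pairs. On assigned chromosomes these shares were 37.8% and 12.8%. Outside runs a ratio above 2 was still found in 39.5% of member pairs (34.2 to 45.0) and 20.7% of assigned pairs (19.2 to 22.4), compared with 44.7% (40.2 to 49.2) and 23.1% (21.6 to 24.7) over all pairs. Within the Un_random pairs the ranks of the 2 ages had a Spearman correlation of 0.65, given as a description over 463 peaks of the same libraries. On assigned chromosomes it was 0.57.

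**Figure D4:**
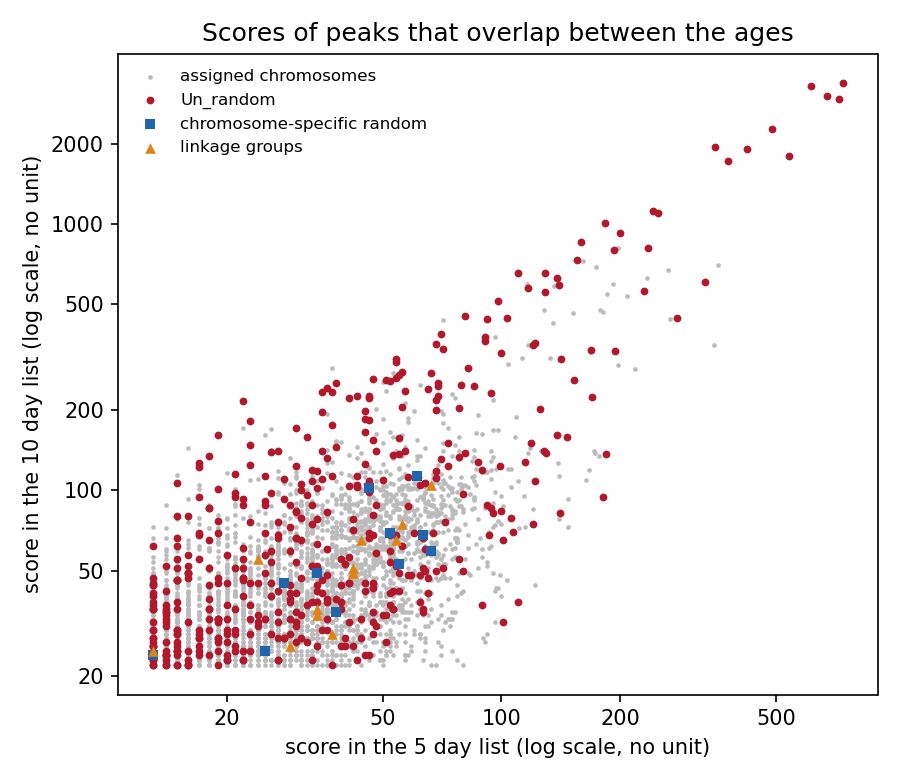
Score at 10 days (vertical log axis) against score at 5 days (horizontal log axis) for every pair of overlapping peaks, with Un_random in red, chromosome-specific random sequence in blue, linkage groups in orange and assigned chromosomes in grey. Un_random pairs extend to scores of 738 and 3381, and 135 of them have a 10 day score over 3 times the 5 day score, while the pairs of the small classes lie within the grey cloud.

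Starts lay a median of 40 bp apart in member pairs (interquartile range 9 to 95.8) and 38 bp apart on assigned chromosomes (16 to 70). The medians were alike, but members had more pairs at both ends of the range. Within 10 bp lay 27.0% of member pairs and 18.0% of assigned pairs, and more than 100 bp apart lay 23.5% and 13.2%. Strong pairs lay close more often than others. Of the 53 member pairs scoring at least 100 at 5 days, 29 started within 10 bp of each other (median distance 9 bp), against 14 of 55 on assigned chromosomes (median 35 bp). Member pairs with a score ratio above 3 were close as well, at a median of 16 bp. Those with a ratio over 2 and up to 3 lay at 63.5 bp. On assigned chromosomes these medians were 41 and 40 bp. More than 1 peak of the other list overlapped 27 of the 707 members at 5 days and 45 of the 5120 peaks on assigned chromosomes.

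Members gathered in short runs. As above, a run is a set of 2 or more peaks on one sequence with successive starts at most 1 kb apart. At 5 days 162 members, 22.9% (19.9 to 26.2), lay in 71 runs, all on Un_random, against 8.95% of the whole list and 7.03% (6.35 to 7.77) on assigned chromosomes. At 10 days 250 members, 21.8% (19.5 to 24.3), lay in 109 runs, against 6.98% of the whole list and 6.14% (5.81 to 6.48) on assigned chromosomes. The share in runs thus differed little between the ages although the 10 day list was longer. Given the members' score bands, 7.29% of assigned peaks at 5 days and 7.74% at 10 days would have been in runs. Of the 10 day runs 101 were on Un_random, 3 on chromosome-specific random sequence and 5 on linkage groups. Most were short: 53 of 71 runs at 5 days and 81 of 109 at 10 days held 2 peaks, and the longest held 5 and 4. Longer runs existed on assigned chromosomes, with up to 8 peaks at 5 days and 5 at 10 days.

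**Figure D5:**
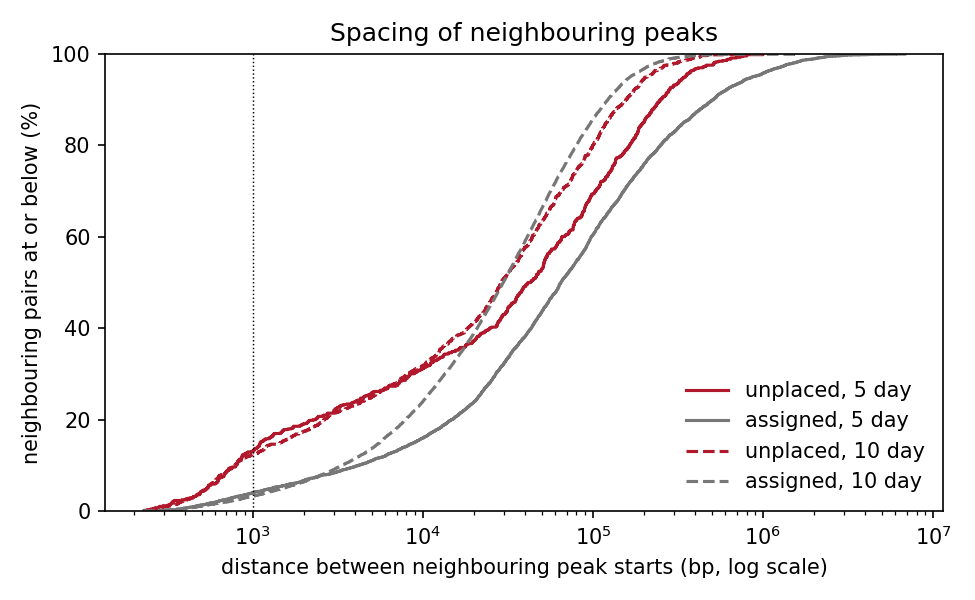
Cumulative percentage of neighbouring peaks (vertical axis) by the distance between their starts in bp (horizontal log axis), for unplaced sequence (red) and assigned chromosomes (grey) at 5 days (solid) and 10 days (dashed), with a dotted line at 1 kb. At 1 kb the unplaced curves stand at 13.1% and 12.5% and the assigned curves at 4.01% and 3.21%, and the unplaced curves of the 2 ages stay together up to several kb.

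Scores in runs, set against single members of the same list, differed between the ages. At 5 days members in runs and single members had close median scores, 23 and 26. At 10 days members in runs scored higher, with a median of 37 against 28. The second highest score of a member run was a median of 0.65 of its highest at 5 days and 0.75 at 10 days, where runs on assigned chromosomes had 0.625 and 0.85. Scores of at least 100 were reached in 6 of the 71 member runs at 5 days and in 34 of the 109 at 10 days. On assigned chromosomes 7 of 156 and 29 of 593 runs reached that score. A run of the other age stood at the same place for 34 of the 71 member runs at 5 days (47.9%) and 34 of the 109 at 10 days (31.2%). On assigned chromosomes this held for 63 of 156 runs (40.4%) and 63 of 593 (10.6%). A 10 day peak of any kind fell within 60 of the 71 member runs at 5 days (84.5%) and within 139 of the 156 runs on assigned chromosomes (89.1%). A 5 day peak fell within 81 of the 109 member runs at 10 days (74.3%) and within 202 of the 593 runs on assigned chromosomes (34.1%). None of the 5 linkage group runs held a 5 day peak, and their scores reached only 31.

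The longest run lay on Un_random from 30504221 to 30507312 at 5 days, with 5 peaks scoring 63, 22, 51, 37 and 24 in order of position. At 10 days the same stretch had 3 peaks, scoring 35, 53 and 34, which fell in part between those of 5 days. At 5 days 17 member runs held 3 peaks, and those with the highest summed scores follow. The first was listed again at 10 days peak for peak. Its 3 peaks from 63713970 to 63715597 scored 68, 35 and 236, and the 10 day peaks, with starts 8, 7 and 9 bp away, scored 218, 197 and 813. In the 5 day run from 3815262 to 3816787 the peaks scored 25, 17 and 81, and the stretch held 1 peak at 10 days, at 3815994 to 3816392 with a score of 452, which covers the space between the second and the last of them and overlaps only the last. Among the member runs of 4 peaks at 10 days, the highest summed score was at 37833918 to 37835660, with peaks of 289, 49, 26 and 35 and a single 5 day peak (score 82) at its near end. The runs at 52000479 to 52002858 (scores 45, 66, 90 and 24) and at 35134754 to 35137077 (34, 38, 24 and 41) each met 2 peaks at 5 days, scoring 30 and 14 in the first and 15 and 13 in the second.

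Members listed at one age only scored lower, in the median, than shared ones, as did peaks on assigned chromosomes. The 213 unmatched members at 5 days had a median score of 16, and the 645 at 10 days one of 25, against 33 and 52 for shared members. On assigned chromosomes the medians were 16 and 24 for unmatched peaks and 32 and 41 for shared ones. A start of the other age within 1 kb was found for 32 unmatched members at 5 days (15.0%) and for 53 at 10 days (8.22%), compared with 7.00% and 1.27% of unmatched peaks on assigned chromosomes. Beyond 10 kb from any peak of the other age lay 103 unmatched members at 5 days (48.4%) and 444 at 10 days (68.8%). None of them scored over 47 at 5 days or over 71 at 10 days. On assigned chromosomes 54.6% and 88.8% of unmatched peaks lay that far away, scoring at most 76 and 70. Such distances depend on how densely the other list is filled. The 5 day list held 10.6 members and 4.97 assigned peaks per Mb, and the 10 day list 17.1 and 19.6. A further 1 unmatched member at 5 days and 20 at 10 days lay on sequences with no peak of the other age. The strongest unmatched 5 day peak on Un_random was at 11503198 to 11503596 (score 79), 475 bp from a 10 day start. The next highest were at 29664716 to 29665114 (score 70), 488 bp from one, and at 29715976 to 29716374 (score 64), 4505 bp from one. At 10 days the strongest scored 103 (11507981 to 11508379), 100 (40699664 to 40700062) and 98 (35131665 to 35132063), and each lay in a run, between 513 and 709 bp from a 5 day start. In the smaller classes the strongest unmatched peaks were on chromosome 28 random sequence (score 33) and on E22C19W28_E50C23 (score 47) at 5 days, and on chromosome 4 random sequence (score 77, 758 bp from a 5 day start) and on E22C19W28_E50C23_random (score 40) at 10 days. In the top 10 day band 16 members were unmatched, of which 10 lay in runs and 9 had a 5 day start within 1 kb. Assigned chromosomes had 10 unmatched peaks in that band, 6 of them in runs and 8 with a 5 day start within 1 kb.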

How the data were processed

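CTCF-bound DNA from chicken blood was read on a Genome Analyzer from Illumina, per the labels' protocols. The authors deposited a headerless BED list for each of the 2 libraries, with 6 columns and a whole-number score per peak. The sources used here give neither the meaning or scaling of the score nor the aligner, the handling of reads that align to several places, the peak caller, its threshold, an input library, the build or the depth. Printed starts count the first base as 1.

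Members were found by sequence name. Members, comparisons and named items were chosen with earlier results of these data known. The named items are the highest scoring pairs and unmatched peaks per class, the 3 longest runs and the 3 fullest 100 kb windows per age, and sequences with 10 or more peaks. Runs of equal length were ordered by summed score. The limits of 50 and 100 for scores and of 2 and 3 for ratios, and the account of the chromosome 1, 5, 16 and 28 random sequences and of those with 10 day peaks only, were chosen after the values were seen. Ranks stay within a list, ties share their mean rank, and a top list keeps ties at its limit. Shares have exact Clopper-Pearson intervals and ratios of counts exact conditional binomial ones. The overlap, pairing and run functions were tested on simulated data and found what was planted. For overlap and pairing no simulated peak had several possible partners, so crowded stretches were not covered. Alternatives changed the overlap rule, width, score limit, list length, run distance and the use of runs. The gene table at hand is on another assembly, so genes, motifs and sequences were not analysed here. The tools were scipy 1.17.1, pandas 2.3.3, numpy 2.4.6 and matplotlib 3.10.9 under Python 3.11.15.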

Additional observations from a re-analysis of the deposited data

How the results depend on the processing

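No paired analysis was possible because there is a single library per age, which also means that none could be left out. Of 38 alternatives 30 moved a value out of its interval and 8 did not. In the upper 50% of the scores members made up 13.4% of the 5 day and 7.29% of the 10 day list, and with each run counted once 11.1% and 4.89%. The 10 day list held 10.6% members when limited to its 5809 peaks scoring at least 29, close to the length of the 5 day list. Members were 36.0% of the 200, 22.4% of the 500 and 17.2% of the 1000 highest 5 day peaks, and 51.7%, 31.3% and 22.8% at 10 days. With starts at most 500 bp, 2 kb and 5 kb apart, 8.06%, 32.0% and 42.7% of 5 day members and 8.03%, 29.2% and 39.7% of 10 day members were in runs, above assigned chromosomes each time (2.62%, 11.2% and 18.2%, then 2.07%, 11.8% and 24.2%). In the upper 50% of the scores 17.8% of 5 day members were in runs. The shared percentages of 5 and 10 day members were 63.4 and 39.1 with overlap of 50%, 75.7 and 49.3 with 500 bp added on each side, 58.4 and 67.2 at equal list length, and 60.4 and 36.7 without runs. At 5 days the upper 50% of the scores gave 82.2. Assigned chromosomes stayed lower under each of these rules, with 43.7 and 42.8 at equal length. The ratio of member counts was 0.87 with lists of equal length and 2.04 for the upper 50% of scores. The former, the ranks at equal length and leaving out pairs in runs were chosen after seeing the data, and the last gave 39.5% of pairs with a score ratio above 2. The cause of these shifts was not tested beyond what each rule does by construction. Since depth is unknown, absence from a list says little.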

Other observations

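The fullest stretches of Un_random were filled at both ages. Peaks stood in 335 windows of 100 kb at 5 days and in 455 at 10 days, with a median of 2 peaks per such window at each age. Windows with 5 or more peaks numbered 20 at 5 days and held 19.5% of the Un_random peaks, and 48 at 10 days with 29.2%. The window from 28200001 to 28300000 had 11 peaks at each age and shared 9 of them at 5 days and 10 at 10 days, and its scores stayed at or below 39 at 5 days and 78 at 10 days. The window from 29600001 to 29700000 had 9 and 10 peaks, 6 of them shared at each age, and was the strongest of these stretches, with median scores of 70 and 88.5 and highest scores of 230 and 733. The window from 30500001 to 30600000 had 10 and 9 peaks, 5 and 6 of them shared. Over all Un_random peaks 70.5% were shared at 5 days and 45.8% at 10 days, and over the whole lists 57.6% and 15.8%. Both 10 day windows with 12 peaks, from 19700001 to 19800000 and from 27400001 to 27500000, had fewer at 5 days, 9 and 6.

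Spacing inside runs had close medians on unplaced and assigned sequence. The run definition caps it at 1 kb in both, so this likeness says little about the members. Successive starts in member runs lay a median of 623 bp apart at 5 days and 594 bp apart at 10 days, and those on assigned chromosomes 615 and 606 bp apart. No peaks of the same list started less than 232 bp apart at 5 days or 240 bp apart at 10 days among members, so neighbours in a list can overlap in part. Such partly overlapping neighbours numbered 17 at 5 days and 25 at 10 days.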
